A study of Mus musculus with 30 samples.

Results

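The guanylate-binding proteins are a family of interferon-induced GTPases, and the transcripts of Gbp2, Gbp3, Gbp4, Gbp5, Gbp6, Gbp7, Gbp8 and Gbp9 were followed here through 30 whole mouse tumors. The members were chosen by gene symbol, each from a single Ensembl identifier, and make up 8 of the 39676 genes in the counts. All 8 passed the filter on low counts (on average 10 or more per tumor), as did 15926 genes in all. The tumors were grown from B16-F10, a mouse melanoma cell line, injected under the skin of adult female C57BL/6 mice and were taken whole on day 8. The cells had been transduced with a retroviral vector carrying murine IFNα4 or IFNα9 together with enhanced GFP, or with the GFP vector alone, which the labels call B16-IFNA4, B16-IFNA9 and B16-GFP. All 3 lines, the control included, also carried the herpes simplex virus glycoprotein B with cyan fluorescent protein, and firefly luciferase with puromycin resistance. In the study they are B16.GFP.gB.luc (control), B16.IFNα4.gB.luc (IFNα4) and B16.IFNα9.gB.luc (IFNα9), whose tumors are called IFNα4, IFNα9 and GFP tumors below. There were 10 tumors of each type, labelled as biological replicates. The tumor cells made the interferon from a viral promoter, while the mice had intact interferon receptors, so that tumor, stromal and immune cells of the host could all respond and were all sampled together.

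Guanylate-binding proteins (GBPs) are large GTPases of the dynamin superfamily that assemble on membranes, above all on the vacuoles and surfaces of intracellular microbes. They help to break open such vacuoles, they release ligands that set off inflammasomes, and they act together with the immunity-related GTPases (IRGs) under the direction of the Atg8 conjugation machinery. Their genes are among the most strongly induced by IFN-γ, through gamma-activated sites (GAS) and through IRF1, and they also respond to type I interferon, which acts through IRF9 on interferon-stimulated response elements (ISRE). In tumors their transcripts can come from the tumor cells themselves, from stromal cells and from leukocytes.

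In the mouse the genes lie in 2 clusters. In the GENCODE M21 annotation of GRCm38, Gbp5 (chr3:142493978-142522344), Gbp7 (chr3:142530342-142550149), Gbp3 (chr3:142560026-142573209) and Gbp2 (chr3:142620602-142638008) lie on the plus strand of chromosome 3. Gbp8 (chr5:105014150-105139540), Gbp9 (chr5:105077630-105139539), Gbp4 (chr5:105115767-105139586) and Gbp6 (chr5:105270702-105293698) lie on the minus strand of chromosome 5, where the models of Gbp8, Gbp9 and Gbp4 start close together. The promoters of Gbp2, Gbp3, Gbp5 and Gbp7 are shown here, with the letters of the ISRE and GAS marked, because these were the members with a promoter entry. They were taken from RefSeq on GRCm38.p6 and run from 250 bases before to 50 bases after the start of transcription. Entries were found for these 4 of the 8 members. The set of promoters used held none for Gbp4, Gbp6, Gbp8 and Gbp9, which does not show that RefSeq lists no start for them. The capitals mark every match to the GAS letters TTCNNNGAA, which read alike on both strands, or to the ISRE core, GAAA and again GAAA with any 2 bases between them, which reads as TTTC, 2 bases and TTTC where it lies on the other strand.
Gbp2 promoter, chr3:142620413-142620712, plus strand: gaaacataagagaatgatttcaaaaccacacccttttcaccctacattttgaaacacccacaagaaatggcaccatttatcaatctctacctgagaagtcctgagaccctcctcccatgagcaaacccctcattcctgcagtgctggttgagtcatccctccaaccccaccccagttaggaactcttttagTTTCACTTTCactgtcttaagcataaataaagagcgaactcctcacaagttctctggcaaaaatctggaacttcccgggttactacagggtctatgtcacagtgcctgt
Gbp3 promoter, chr3:142559794-142560093, plus strand: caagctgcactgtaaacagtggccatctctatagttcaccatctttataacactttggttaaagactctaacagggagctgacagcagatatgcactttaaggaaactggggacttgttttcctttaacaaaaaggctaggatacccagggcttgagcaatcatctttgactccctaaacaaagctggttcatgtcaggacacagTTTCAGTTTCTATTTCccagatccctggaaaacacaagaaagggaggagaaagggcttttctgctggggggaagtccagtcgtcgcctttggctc
Gbp5 promoter, chr3:142496684-142496983, plus strand: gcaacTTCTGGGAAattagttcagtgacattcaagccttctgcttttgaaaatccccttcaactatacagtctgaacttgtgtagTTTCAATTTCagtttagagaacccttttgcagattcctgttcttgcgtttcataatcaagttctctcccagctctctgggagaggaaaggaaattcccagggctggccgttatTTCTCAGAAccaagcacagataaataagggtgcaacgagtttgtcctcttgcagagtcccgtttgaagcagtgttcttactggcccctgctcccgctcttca
Gbp7 promoter, chr3:142530086-142530385, plus strand: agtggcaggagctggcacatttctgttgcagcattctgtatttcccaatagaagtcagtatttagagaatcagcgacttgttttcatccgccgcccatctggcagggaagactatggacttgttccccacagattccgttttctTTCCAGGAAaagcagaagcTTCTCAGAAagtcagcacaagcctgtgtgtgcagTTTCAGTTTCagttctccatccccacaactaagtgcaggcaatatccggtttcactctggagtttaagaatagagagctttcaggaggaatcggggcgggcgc

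Each of the 4 promoters held at least 1 ISRE match on the minus strand. The match began 59 bases before the start in Gbp2, 53 bases before it in Gbp7 and 165 bases before it in Gbp5. Gbp3 held a pair of overlapping matches beginning 45 and 39 bases before the start, and a second Gbp3 start listed by RefSeq (chr3:142560106-142560405) held none. GAS matches were found in Gbp5, 245 and 52 bases before the start, and in Gbp7, 106 and 87 bases before it, but not in the windows of Gbp2 and Gbp3. Of 32851 promoters of the same length, 3.44% held the ISRE letters, 8.30% the GAS letters and 0.454% both. A match describes the sequence and does not show that a factor binds there.

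Between 14598517 and 19788383 reads were counted per tumor. Levels are given as CPM (counts scaled to a common library size) after TMM scaling, a correction for differences in library composition. The quasi-likelihood test of edgeR was used for differences, its p-values were adjusted by Benjamini-Hochberg over the 15926 genes, and a gene was called at an adjusted p under 0.05. In IFNα9 against GFP tumors 4281 genes were higher and 4595 lower, and 5052 and 3608 when libraries were scaled by their totals. Tyr and Tyrp1, the melanocyte genes among the markers found in the counts, were present in every tumor, with medians of their summed level of 8423 CPM in GFP, 2795 CPM in IFNα4 and 4133 CPM in IFNα9 tumors. The summed level of 4 pan-leukocyte genes (Ptprc, Cd52, Coro1a and Laptm5) ran from 108 to 424 CPM in GFP, from 678 to 1375 CPM in IFNα4 and from 497 to 993 CPM in IFNα9 tumors. GFP tumor 7 stood apart at the low end, with the smallest TMM factor (0.768) and the lowest leukocyte level. The range of the fold changes and the ratio of highest to lowest tumor are given below with and without it. Means and SDs of GFP tumors below include it.

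Both IFN-I–secreting tumor types were compared with GFP tumors to see how far the Gbp genes responded to each interferon. Every member rose in both. All 8 were called higher in IFNα4 tumors, where 31.3% of all genes tested were called higher, and all 8 in IFNα9 tumors, where 26.9% were. For all 8 members the lowest IFN-I–secreting tumor of each type lay above the highest GFP tumor, a separation that 8.5% of genes showed in IFNα4 and 4.44% in IFNα9 tumors. The median log2 fold change of the members was 3.26 in IFNα4 and 3.48 in IFNα9 tumors, against 0.01 and -0.00 over all genes tested. Both comparisons used the same GFP tumors and so are not independent of each other. In whole tumors a change in the number of cells that express a gene cannot be told apart from a change in the RNA per cell.

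On chromosome 3, Gbp2, which coats the vacuoles of parasites and bacteria, ran from 26.0 to 142 CPM in GFP tumors with a median of 62.2 CPM. It ran from 324 to 721 CPM (median 495) in IFNα4 tumors and from 351 to 1566 CPM (median 734) in IFNα9 tumors. The log2 fold change against GFP tumors was 2.78 (SE 0.28) for IFNα4 and 3.49 (SE 0.29) for IFNα9. Gbp2 was thus the member with the smallest rise in IFNα4 tumors, although no IFN-I–secreting tumor fell within the GFP range. Gbp3, on the same chromosome, ran from 14.3 to 67.7 CPM (median 39.0) in GFP tumors, from 259 to 388 CPM (median 346) in IFNα4 tumors and from 236 to 464 CPM (median 303) in IFNα9 tumors. Its log2 fold changes were 3.08 (SE 0.19) for IFNα4 and 3.08 (SE 0.19) for IFNα9. The rise of Gbp3 was the most evenly shared, since its IFNα4 tumors spanned a range of only 1.50-fold. Gbp5, which promotes assembly of the NLRP3 inflammasome, ran from 3.22 to 27.7 CPM (median 12.8) in GFP, from 92.9 to 184 CPM (median 145) in IFNα4 and from 55.4 to 258 CPM (median 143) in IFNα9 tumors. Its log2 fold changes were 3.28 (SE 0.29) and 3.37 (SE 0.29). The lowest IFNα9 tumor still had 2.00 times the Gbp5 level of the highest GFP tumor. Gbp7, linked to NADPH oxidase assembly on phagosomes, ran from 10.0 to 64.1 CPM (median 38.5) in GFP, from 213 to 353 CPM (median 284) in IFNα4 and from 235 to 690 CPM (median 423) in IFNα9 tumors. Its log2 fold changes were 2.91 (SE 0.23) and 3.48 (SE 0.24). In the quasi-likelihood test of edgeR, the adjusted p of these 4 genes lay between 2.35e-14 (Gbp3) and 8.26e-10 (Gbp2) in IFNα4 tumors and between 7.51e-14 (Gbp3) and 7.73e-11 (Gbp5) in IFNα9 tumors.

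On chromosome 5, Gbp4, reported to restrain the antiviral factor IRF7, ran from 4.02 to 42.6 CPM in GFP tumors with a median of 17.4 CPM. It ran from 139 to 299.8 CPM (median 217) in IFNα4 tumors and from 156 to 957 CPM (median 425) in IFNα9 tumors. Its log2 fold change was 3.35 (SE 0.34) for IFNα4 and 4.45 (SE 0.36) for IFNα9, a 10.2-fold and a 21.8-fold rise. The rise in IFNα9 tumors was the largest of any member and the 21st largest of all 15926 genes. Gbp6, a vacuole-targeting member, ran from 6.70 to 57.4 CPM (median 26.2) in GFP, from 229.9 to 491 CPM (median 368) in IFNα4 and from 216 to 956 CPM (median 434) in IFNα9 tumors. Its log2 fold changes were 3.69 (SE 0.32) and 4.11 (SE 0.33). Gbp6 had the largest rise of the members in IFNα4 tumors, but its reads are shared with its neighbors. Of the 50-base stretches in Gbp6 transcripts, 70.7% also occur in another gene, chiefly Gm43302 (65.0%) and Gbp10 (45.9%), and the counts of these 3 genes summed gave log2 fold changes of 3.75 and 4.23. Gbp8 was the lowest member in GFP tumors, at 0.536 to 9.09 CPM (median 5.90), and ran from 43.0 to 98.5 CPM (median 74.9) in IFNα4 and from 44.5 to 237 CPM (median 105) in IFNα9 tumors. Its log2 fold changes were 3.61 (SE 0.32) and 4.36 (SE 0.33). Gbp9 ran from 5.81 to 40.7 CPM (median 24.7) in GFP, from 168 to 341 CPM (median 242) in IFNα4 and from 111 to 344 CPM (median 211) in IFNα9 tumors. Its log2 fold changes were 3.24 (SE 0.24) and 3.06 (SE 0.24), so that Gbp9 was the member with the smallest rise in IFNα9 tumors. In the quasi-likelihood test of edgeR, the adjusted p of these 4 genes lay between 1.11e-12 (Gbp9) and 1.38e-09 (Gbp4) in IFNα4 tumors and between 4.69e-12 (Gbp8) and 2.14e-11 (Gbp4) in IFNα9 tumors. The other shares of 50-base stretches found elsewhere were 18.1% for Gbp8, 12.7% for Gbp7, 8.05% for Gbp9, 7.70% for Gbp4, 3.75% for Gbp3, 2.03% for Gbp2 and 1.44% for Gbp5.

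**Figure D1:**
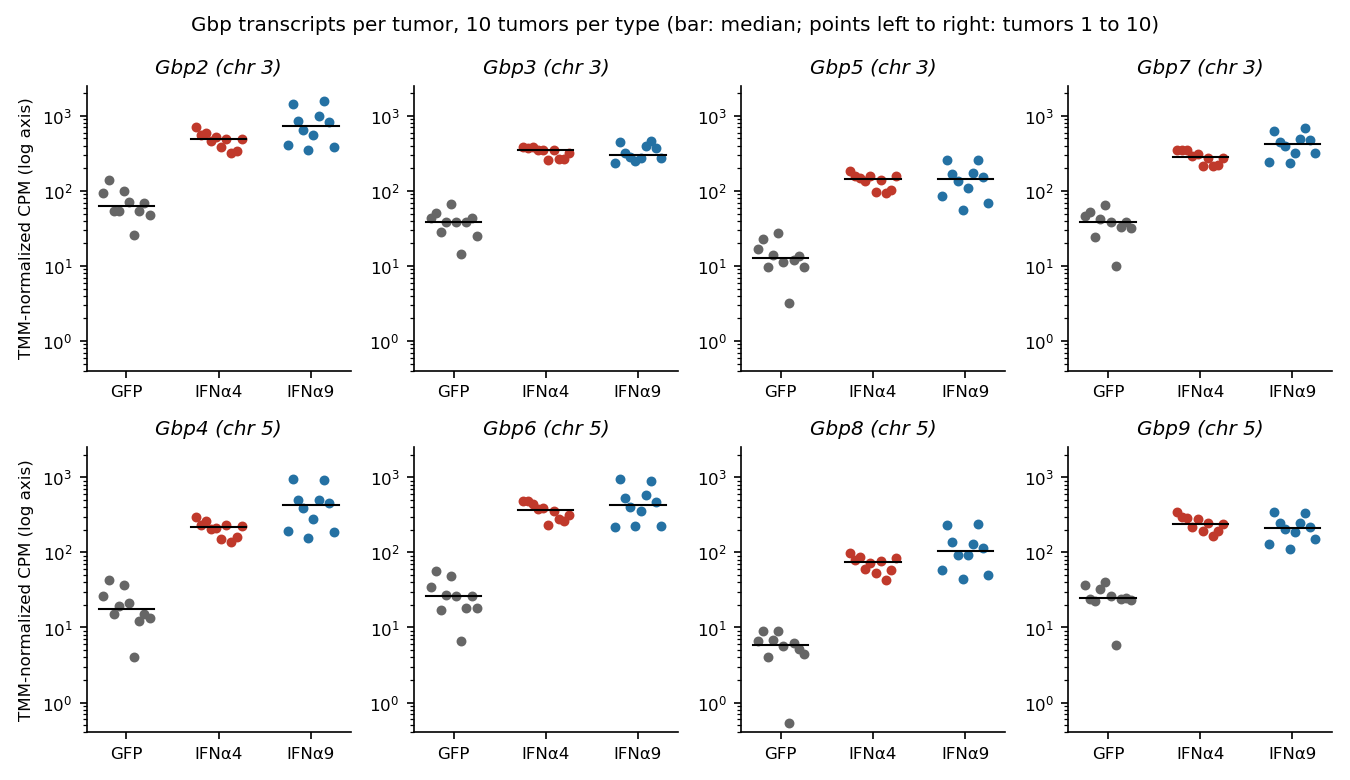
Level of each Gbp member in each of the 30 tumors, in TMM-normalized CPM on a log axis, with 10 tumors per type (points, from left to right tumors 1 to 10) and the median of each type (bar). All IFNα4 and IFNα9 tumors lie above all GFP tumors in all 8 panels, GFP tumor 7 is the lowest point in each, and the IFNα9 tumors spread more widely than the IFNα4 tumors.

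The members rose by broadly similar amounts in IFNα4 tumors and by more different amounts in IFNα9 tumors. Against GFP tumors the 8 log2 fold changes ran from 2.78 to 3.69 in IFNα4 and from 3.06 to 4.45 in IFNα9 tumors. The chromosome 3 members had a median of 2.99 and the chromosome 5 members of 3.48 in IFNα4 tumors, and in IFNα9 tumors these medians were 3.42 and 4.23. Without GFP tumor 7 all 8 members were still called in both comparisons, with log2 fold changes from 2.70 (Gbp2) to 3.60 (Gbp6) in IFNα4 and from 2.95 (Gbp9) to 4.33 (Gbp4) in IFNα9 tumors. The leukocyte genes named above rose as well, 4 of 4 in both comparisons, with median log2 fold changes of 1.53 in IFNα4 and 1.16 in IFNα9 tumors. Markers of NK cells (4 of 4 called higher in both, medians 4.10 and 3.40) and of T cells (6 of 6 and 5 of 6, medians 2.67 and 2.19) also rose, whereas those of B cells, with a summed level of at most 2.20 CPM in any tumor, did not pass the filter. Of 5 measured monocyte and macrophage genes 4 rose in both (medians 0.95 and 1.03). The largest rise was that of Ly6c2, a surface protein gene of inflammatory monocytes (3.24, SE 0.18, in IFNα4 and 2.35, SE 0.17, in IFNα9 tumors). The smallest was that of Cd68 (0.54, SE 0.19, and 0.44, SE 0.19), and Csf1r was not called in either (-0.28, SE 0.18, and -0.05, SE 0.18). Endothelial genes were lower for 3 of 4 in both (medians -0.64 and -1.25), both measured melanoma genes were lower in both (medians -1.61 and -1.07), and 0 of 3 skeletal muscle genes were lower in IFNα4 and 2 of 3 in IFNα9 tumors (medians -0.04 and -0.98). The endothelial gene Kdr was the exception, with a rise of 1.35 (SE 0.16) in IFNα4 tumors and a value of 0.00 (SE 0.16) in IFNα9 tumors. The part of these cell types in the rise of the Gbp transcripts was not tested.

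The IFNα9 tumors were then compared with the IFNα4 tumors. Gbp4 was the only member called, 2.14-fold higher in IFNα9 tumors, in a comparison in which 10.5% of all genes tested were called higher and 7.25% lower. Its log2 fold change was 1.10 (SE 0.32, 95% interval 0.48 to 1.72, adjusted p = 0.0141 by edgeR), and 6 of 10 IFNα9 tumors lay above the highest IFNα4 tumor while the other 4 lay within the IFNα4 range. Gbp4 was called without any single tumor, with an adjusted p between 0.00501 and 0.0393. Gbp2, Gbp7 and Gbp8 did not pass the threshold. Gbp2 had a log2 fold change of 0.71 (SE 0.26, adjusted p = 0.0547 by edgeR), with 5 of 10 IFNα9 tumors above the IFNα4 range. Gbp7 had one of 0.57 (SE 0.22, adjusted p = 0.0635 by edgeR), with 6 of 10 tumors above it. Gbp8 had one of 0.75 (SE 0.28, adjusted p = 0.0635 by edgeR), with 5 of 10 tumors above it. None of the IFNα9 tumors lay below the IFNα4 range for these 3 genes or for Gbp4.

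For the other members the IFNα9 tumors lay on both sides of the IFNα4 range. Gbp6 had a log2 fold change of 0.42 (95% interval -0.14 to 0.98), with 4 IFNα9 tumors above and 3 below the IFNα4 range. Gbp5 had one of 0.09 (95% interval -0.42 to 0.60), with 2 tumors above and 3 below. Gbp3 had one of 0.01 (95% interval -0.34 to 0.35), with 3 tumors above and 2 below. Gbp9 was the only member with a value under 0, at -0.17 (95% interval -0.60 to 0.25), with 1 tumor above and 3 below. The sign of Gbp3 was negative under DESeq2's size factors, and these intervals do not show that the levels were equal. For no member did all IFNα9 tumors lie above or below all IFNα4 tumors, a separation that 2.83% of all genes tested showed.

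How many members were called depended on which tumors entered the fit. With only the 20 tumors of both types in the fit, 4 members were called (Gbp2, Gbp4, Gbp7 and Gbp8), and with DESeq2 3 (Gbp2, Gbp4 and Gbp7). The count was 4 without GFP tumor 7, without IFNα9 tumor 1 and without IFNα9 tumor 5, and it was 3 without IFNα9 tumor 10. It was 2 without GFP tumor 1, GFP tumor 2, IFNα4 tumor 1, IFNα9 tumor 4 or IFNα9 tumor 6, and 1 without each of the remaining 21 tumors. The number of all 15926 genes called higher moved as well, from 1679 in the fit as reported to 2363 with only the types compared. That number was 1704 with DESeq2, 2043 without GFP tumor 7, and 1817, 1842 and 1259 without IFNα9 tumor 1, 5 and 10. The leukocyte genes showed no call in this comparison (0 of 4, median log2 fold change -0.37), nor did the T cell genes (0 of 6, median -0.39), and 1 of 4 NK cell genes was lower (median -0.58). Of the monocyte and macrophage genes 2 of 5 were lower, Fcgr1 (-0.85, SE 0.17) and Ly6c2 (-0.89, SE 0.17). Genes of endothelial cells (3 of 4 lower) and skeletal muscle (2 of 3 lower) and a melanocyte gene (1 of 2 higher) also moved. The part of these genes in the Gbp levels was not tested.

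**Figure D2:**
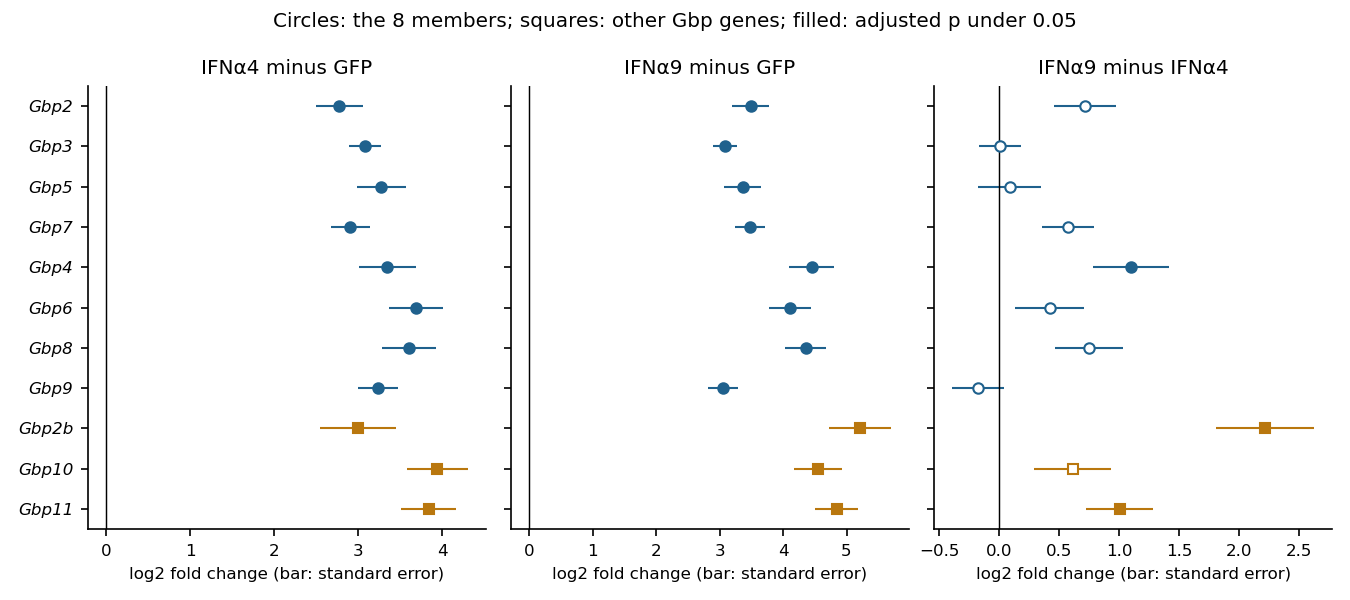
Log2 fold change (x axis) with its standard error for the 8 members (circles) and 3 further Gbp genes (squares) in the 3 comparisons, filled where the adjusted p was under 0.05. All genes lie right of 0 in both comparisons with GFP tumors, between 2.78 and 5.21, whereas between IFNα9 and IFNα4 tumors they run from -0.17 (Gbp9) to 2.22 (Gbp2b), and Gbp4 is the only filled circle.

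The Gbp genes that were not among the members rose with them. Gbp2b, also known as Gbp1, lies between Gbp3 and Gbp2 and was the scarcest, with a mean of 1.27 ± 0.980 CPM (SD, n = 10) in GFP, 10.4 ± 3.98 CPM in IFNα4 and 48.5 ± 42.7 CPM in IFNα9 tumors. Its log2 fold change between IFNα9 and IFNα4 tumors was 2.22 (SE 0.41, adjusted p = 2.70e-04 by edgeR), the largest in the family, and 7 of 10 IFNα9 tumors lay above the IFNα4 range. Its promoter held the same 10 ISRE letters as that of Gbp2, TTTCACTTTC, beginning 137 bases before the start, and no GAS match. Gbp11, annotated as a polymorphic pseudogene, was also higher in IFNα9 than in IFNα4 tumors (log2 fold change 1.00, SE 0.28, adjusted p = 0.0118 by edgeR). Gbp10, of which 84.1% of 50-base stretches occur in other genes, was not called (0.61, adjusted p = 0.194 by edgeR). Against GFP tumors these 3 genes had log2 fold changes from 3.00 to 3.94 in IFNα4 and from 4.55 to 5.21 in IFNα9 tumors, all called.

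Per kilobase of exon, Gbp2 was the most abundant member in every tumor type, and Gbp3 came next. In GFP tumors Gbp2 stood at 28.3 ± 13.1 CPM per kb (SD, n = 10), ahead of Gbp3 at 12.0 ± 4.47, Gbp7 at 6.80 ± 2.66, Gbp9 at 5.04 ± 1.83, Gbp6 at 4.70 ± 2.55, Gbp4 at 2.76 ± 1.57, Gbp5 at 2.12 ± 1.06 and Gbp8 at 1.67 ± 0.726. Gbp9 exceeded Gbp6 in 7 of 10 GFP tumors and Gbp4 exceeded Gbp5 in 8, so that these neighbors in the order were not separated. In IFNα4 tumors the order was Gbp2 (194 ± 47.6 CPM per kb), Gbp3 (101 ± 15.2), Gbp6 (60.8 ± 15.2), Gbp7 (51.0 ± 9.83), Gbp9 (47.6 ± 10.5), Gbp4 (28.2 ± 6.65), Gbp5 (20.7 ± 4.62) and Gbp8 (20.6 ± 4.99). The last pair was level, with Gbp5 above Gbp8 in 4 of 10 tumors, but this depends on the length used. Per kilobase of the longest transcript in place of all exons, Gbp5 stood at 36.5 ± 8.16 and above Gbp8 in 10 of 10 IFNα4 tumors. In IFNα9 tumors it was Gbp2 (318 ± 168 CPM per kb), Gbp3 (102 ± 25.4), Gbp6 (81.5 ± 44.8), Gbp7 (75.9 ± 27.5), Gbp4 (60.5 ± 38.1), Gbp9 (42.2 ± 15.4), Gbp8 (34.6 ± 20.1) and Gbp5 (22.0 ± 10.6). Here Gbp4 stood ahead of Gbp9 by its mean but was not separated from it, being higher in 8 of 10 IFNα9 tumors. Gbp9 exceeded Gbp4 in 10 of 10 IFNα4 tumors, or in 7 of 10 per kilobase of the longest transcript. Gbp6 and Gbp7 were not separated in IFNα9 tumors, as Gbp6 was higher in 5 of 10. With the longest transcript the order of means there turned for Gbp5 (38.9 ± 18.8 CPM per kb), above Gbp8 (35.3 ± 20.5) in 8 of 10 tumors. It also turned for Gbp4 (99.95 ± 62.8), above Gbp7 (75.9 ± 27.5) in 7 of 10, and neither pair was separated.

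The make-up of the Gbp transcript pool, the sum of the 8 members per kilobase in a tumor, was compared between the tumor types. The pool itself was 63.3 ± 26.2 CPM per kb in GFP, 524 ± 111 in IFNα4 and 736 ± 348 in IFNα9 tumors, and the IFNα9 tumors (359.6 to 1334) overlapped the IFNα4 tumors (374 to 711). Gbp9 made up 9.08 ± 0.405% of it in IFNα4 and 5.98 ± 0.692% in IFNα9 tumors, and the lowest IFNα4 tumor (8.30%) lay above the highest IFNα9 tumor (7.08%). Gbp5 likewise had a smaller share in IFNα9 tumors, at most 3.24% against at least 3.63% in IFNα4 tumors. Neither gene was called between these types, and a share also shrinks where other members are higher. The share of Gbp4 was 5.37 ± 0.310% in IFNα4 and 7.70 ± 1.36% in IFNα9 tumors, and these ranges met only at their ends (up to 5.79% and from 5.77%). Gbp2 held 44.7 ± 5.01% of the pool in GFP, 36.8 ± 1.78% in IFNα4 and 42.1 ± 2.77% in IFNα9 tumors. Gbp6 held 7.08 ± 1.04%, 11.6 ± 1.13% and 10.7 ± 1.04%, with every IFN-I–secreting tumor above every GFP tumor. Of the exon bases of Gbp6, 29.0% lie in exons of Gm43302 on the same strand. Its level per kilobase and its share may therefore depend on how shared reads were counted. Shares use the exon lengths above, are not independent of one another, since they add up to the whole, and are given without a test.

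**Figure D3:**
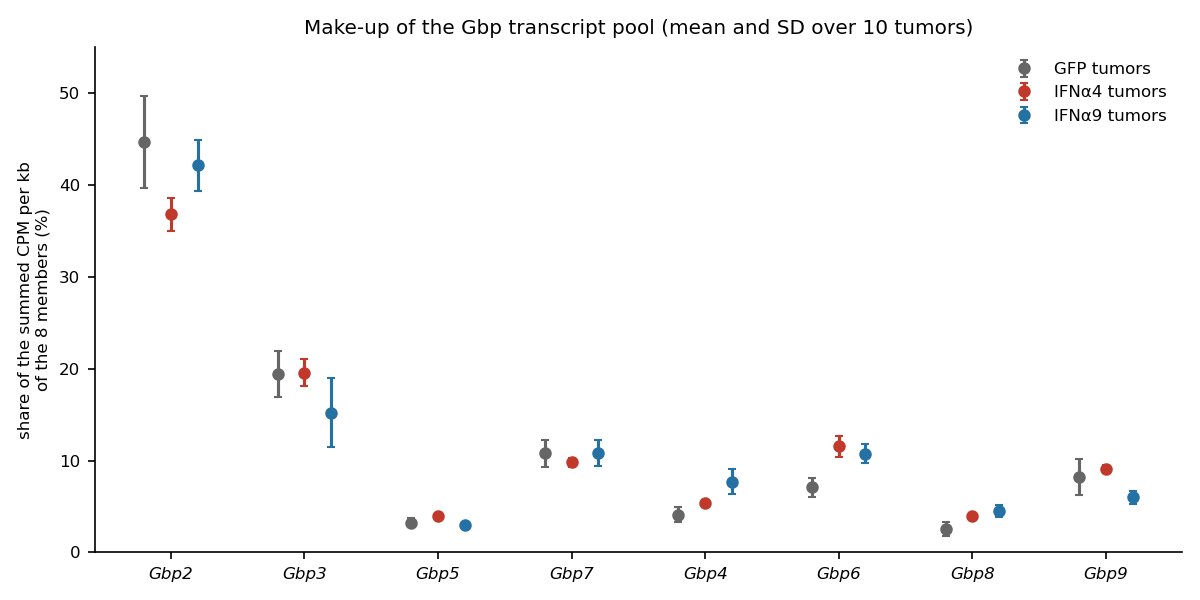
Share of each member in the summed CPM per kb of the 8 members (y axis, %), as the mean and SD over 10 tumors of each type. Gbp2 leads in every type with 36.8% to 44.7%, and Gbp9 falls from 9.08% in IFNα4 to 5.98% in IFNα9 tumors while Gbp4 stands at 5.37% and 7.70%.

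Tumors of a type were not alike in their Gbp levels, and they differed by type in how unlike they were. The highest tumor exceeded the lowest by 1.50-fold to 2.29-fold in IFNα4 tumors, depending on the member, and by 1.97-fold to 6.15-fold in IFNα9 tumors. In GFP tumors it did so by 4.74-fold to 17.0-fold, which rests on GFP tumor 7, and by 1.79-fold (Gbp9) to 3.47-fold (Gbp4) without that tumor. The SD of log2 CPM was larger in IFNα9 than in IFNα4 tumors for 8 of 8 members, with Gbp4 at 0.92 against 0.35 and Gbp3 at 0.35 against 0.23. The same tumors stood at the ends for nearly all members. IFNα9 tumors 2 and 8 were the highest pair for 8 of 8 members, and IFNα9 tumors 1 and 5 were among the lowest 3 for 8 of 8. IFNα4 tumors 6, 8 and 9 were the lowest 3 for 8 of 8 members, and IFNα4 tumor 1 was the highest for 7. GFP tumor 7 was the lowest for 8 of 8, with 0.536 CPM of Gbp8, where the next lowest tumor had 4.01 CPM. Replicate numbers only name the tumors and carry no order.

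The members accordingly rose and fell together from tumor to tumor. Across the 10 tumors of a type, the Pearson correlation of log2 CPM between members had a median over 28 pairs of 0.933 in GFP, 0.933 in IFNα4 and 0.978 in IFNα9 tumors. The lowest pair was Gbp2 with Gbp9 (0.726) in GFP, Gbp6 with Gbp8 (0.738) in IFNα4 and Gbp3 with Gbp5 (0.900) in IFNα9 tumors. These correlations describe genes measured in the same libraries, some of which share sequence, and carry no test. Among all other genes tested, those most like the members over the 30 tumors were Irgm2 (mean r 0.989), Ifi47 (0.989), Gm12250 (0.988), Gm43302 (0.988) and Gbp10 (0.988). After the mean of each tumor type was subtracted they were Gm12250 (0.946), Irgm2 (0.944), Ifi47 (0.940), Gm4951 (0.936) and Gm43302 (0.930). Irgm2, Ifi47 and Gm12250 encode IRGs, which work with GBPs at vacuoles, and the last is also known as Irgb10.

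Leukocyte content also varied from tumor to tumor, and Gbp levels were set against Ptprc, which encodes the pan-leukocyte surface protein CD45. The members' levels in GFP tumors did not overlap those in the other types, whereas IFNα4 and IFNα9 tumors overlapped, and the relation was taken within each type, for 8 members and 3 types (24 relations), by two-sided permutation tests with 100000 resamples. The 48 p-values of r and of Spearman's rho were adjusted together. In IFNα4 tumors r ran from 0.672 to 0.928 and rho from 0.733 to 0.927, and 7 of 8 values of r and 8 of 8 of rho passed an adjusted p of 0.05 in the permutation test. Many other genes followed Ptprc as well. With no adjustment, 8 of 8 members had a positive r and a positive rho with p under 0.05 in IFNα4 tumors, as did 13.4% for r and 13.0% for rho of all 15925 genes tested other than Ptprc, and with p adjusted over all these genes 5 members passed for r and 4 for rho. In IFNα9 tumors r ran from 0.634 to 0.870 and rho from 0.709 to 0.879, again with 7 of 8 and 8 of 8 passing. The unadjusted count was again 8 of 8 for both, against 10.5% and 6.83% of genes, but adjusted over all genes 1 member passed for r and 0 for rho, where 0 genes in all did. The values over all genes were added after the relations of the members had been seen. Gbp9 had the highest r over all tumors of each type, with r = 0.919 in GFP, 0.928 in IFNα4 and 0.870 in IFNα9 tumors and adjusted permutation p = 0.0102, 0.00336 and 0.00547, although in IFNα4 tumors Gbp2 had the highest rho (0.927 against 0.915). In GFP tumors r ran from 0.506 to 0.919 and rho from 0.152 to 0.649, and only the r of Gbp9 passed, also over all genes. Unadjusted, 4 members had a positive r and 1 a positive rho with p under 0.05, against 21.2% and 9.65% of genes. That relation rests on GFP tumors 2 and 7, the farthest from the median of Ptprc, since without them the r of Gbp9 was 0.594. Without the 2 farthest tumors r ran from 0.556 to 0.832 in IFNα4, from 0.498 to 0.777 in IFNα9 and from 0.445 to 0.721 in GFP tumors.

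Relative to Ptprc, the median difference of the Gbp members was positive in IFNα9 against IFNα4 tumors. Ptprc itself was not called between IFNα9 and IFNα4 tumors (log2 fold change -0.52, SE 0.22, adjusted p = 0.105 by edgeR). The log2 ratio of Gbp4 to Ptprc within a tumor was -2.06 ± 0.77 (SD, n = 10) in GFP, -1.25 ± 0.21 in IFNα4 and 0.17 ± 0.59 in IFNα9 tumors. That of Gbp2 was -0.18 ± 0.72, -0.05 ± 0.19 and 1.06 ± 0.49, and that of Gbp7 was -1.08 ± 0.50, -0.80 ± 0.25 and 0.25 ± 0.32. For these 3 members, though for none of the other 5, all 10 IFNα9 tumors lay above all 10 IFNα4 tumors, which 1.31% of all genes tested did on this ratio. The median difference of the 8 members between IFNα9 and IFNα4 tumors was 0.93 on the log2 scale, against 0.53 over all genes, which is set by the lower Ptprc of IFNα9 tumors. Against GFP tumors the members' ratio to Ptprc was higher by a median of 0.64 in IFNα4 and 1.28 in IFNα9 tumors, against -2.71 and -2.18 over all genes, and for 0 of 8 members did the types separate, which 0.232% and 0.138% of genes did. Gbp2 differed least between IFNα4 and GFP tumors on this ratio, by 0.14. These values depend on the marker, since Ptprc rose the most of the 4 leukocyte genes, by a log2 fold change of 2.65 in IFNα4 tumors against 1.66 for Cd52, 1.40 for Coro1a and 0.89 for Laptm5. Relative to those 3 genes the median difference of the members against GFP tumors was 1.68, 1.88 and 2.38 in IFNα4 tumors, where the medians over all genes were -1.67, -1.47 and -0.97. In IFNα9 tumors it was 2.01, 2.51 and 2.64, against -1.46, -0.95 and -0.82 over all genes. All 10 IFNα4 tumors then lay above all GFP tumors for 3, 3 and 7 of 8 members and for 1.12%, 0.942% and 2.29% of all genes. All 10 IFNα9 tumors did so for 6, 8 and 8 members and for 0.622%, 0.917% and 1.34% of all genes. Between IFNα9 and IFNα4 tumors the members' median was 0.61, 0.92 and 0.55, against 0.21, 0.52 and 0.15 over all genes. All 10 IFNα9 tumors lay above all IFNα4 tumors for 1, 0 and 0 of 8 members, and for 0.722%, 3.56% and 0.402% of all genes. The ratios were chosen after the levels had been seen and carry no test.

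**Figure D4:**
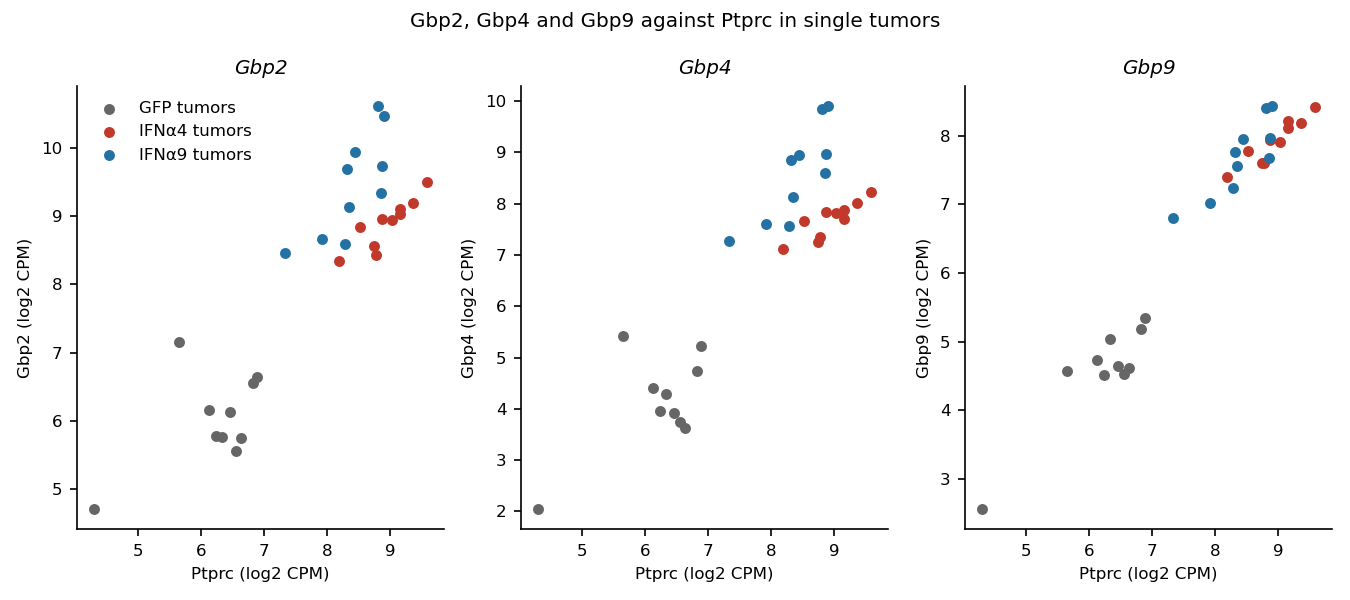
Log2 CPM of Gbp2, Gbp4 and Gbp9 (y axes) against log2 CPM of Ptprc (x axes) in single tumors, colored by type, with 10 tumors of each. Levels rise with Ptprc within IFNα4 and within IFNα9 tumors (r of 0.887 and 0.769 for Gbp2, 0.862 and 0.817 for Gbp4, 0.928 and 0.870 for Gbp9), and for Gbp2 and Gbp4 the IFNα9 tumors lie above IFNα4 tumors of like Ptprc.

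Signaling genes linked to Gbp transcription were examined next, from a list of 14, of which 10 were in the counts and passed the filter. Ifng, Jak2, Stat2 and Socs1 were not analysed here. In IFNα4 tumors 8 of 10 rose against GFP tumors and none fell, and in IFNα9 tumors 7 rose and 1, the receptor subunit gene Ifngr2, fell by 0.19 on the log2 scale. Of all genes tested, 31.3% and 26.9% were called higher in these comparisons, and 34.1% and 28.9% lower. Irf9, whose product recognizes the ISRE, rose by a log2 fold change of 1.71 (SE 0.11) in IFNα4 and 1.43 (SE 0.11) in IFNα9 tumors. Between IFNα9 and IFNα4 tumors 1 of 10 regulators was called higher, near the 10.5% of all genes tested. This was Irf1, an activator of Gbp genes downstream of IFN-γ. It ran from 16.6 to 80.2 CPM (median 44.7) in GFP, from 116 to 188 CPM (median 137) in IFNα4 and from 128 to 487 CPM (median 229.7) in IFNα9 tumors. The ranges of both interferons overlapped, and the log2 fold change between them was 0.85 (SE 0.22, adjusted p = 0.00795 by edgeR). IFNα9 tumors 8 and 2, the highest pair for every Gbp member, also had the most Irf1 transcripts (487 and 443 CPM). After the mean of each tumor type was subtracted, Irf1 was at rank 9 of the genes most like the members (mean r 0.904). The part of Irf1 in the Gbp levels was not tested. Between IFNα9 and IFNα4 tumors Irf9 (-0.28, SE 0.11) was not called, and Ifngr2 was lower (-0.30, SE 0.06, adjusted p = 3.13e-04 by edgeR). Irf8 and Irf2, which can activate and repress interferon target genes, rose in both types, Irf8 by 1.43 and 1.72 and Irf2 by 1.44 and 1.20, and were not called between them.

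Of the IRGs, all 6 measured members of a list of 7 (Iigp1 was not analysed here) rose in IFNα4 and in IFNα9 tumors against GFP tumors, with median log2 fold changes of 2.97 and 3.59. Between IFNα9 and IFNα4 tumors 2 of 6 were called higher, the near-identical pair Tgtp1 (1.14, SE 0.31) and Tgtp2 (1.07, SE 0.30), whose reads can be exchanged in counting. The regulatory IRG Irgm2 (0.34, SE 0.21) and Igtp (0.63, SE 0.26) were not called. Inflammasome genes act after GBPs have exposed bacterial ligands. Of 6 measured genes of a list of 9 (Nlrc4, Casp1 and Gsdmd were not analysed here), 6 rose in IFNα4 and 5 in IFNα9 tumors, Il1b being the exception (0.12, SE 0.21). Aim2, a DNA sensor, rose by 2.44 (SE 0.22) and 1.96 (SE 0.21), and Casp4, which encodes the lipopolysaccharide sensor caspase-11, by 2.34 (SE 0.19) and 1.68 (SE 0.19). Between IFNα9 and IFNα4 tumors 2 of 6 were lower and none higher. These were Casp4 (-0.66, SE 0.18, adjusted p = 0.0108 by edgeR) and the cytokine gene Il18 (-0.37, SE 0.12, adjusted p = 0.0310 by edgeR). The Atg8 conjugation genes, which target GBPs and IRGs to vacuoles, showed no call upward. Of 9 measured genes of a list of 10 (Atg12 was not analysed here) 3 fell in IFNα4 tumors and 3 in IFNα9 tumors against GFP tumors, and 2 were lower in IFNα9 than in IFNα4 tumors. Over all genes tested, 34.1%, 28.9% and 7.25% were called lower in these comparisons, so that against GFP tumors the share of Atg8 conjugation genes was near that of all genes. The largest of their differences was -0.46 (Map1lc3b, IFNα9 against GFP).

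**Figure D5:**
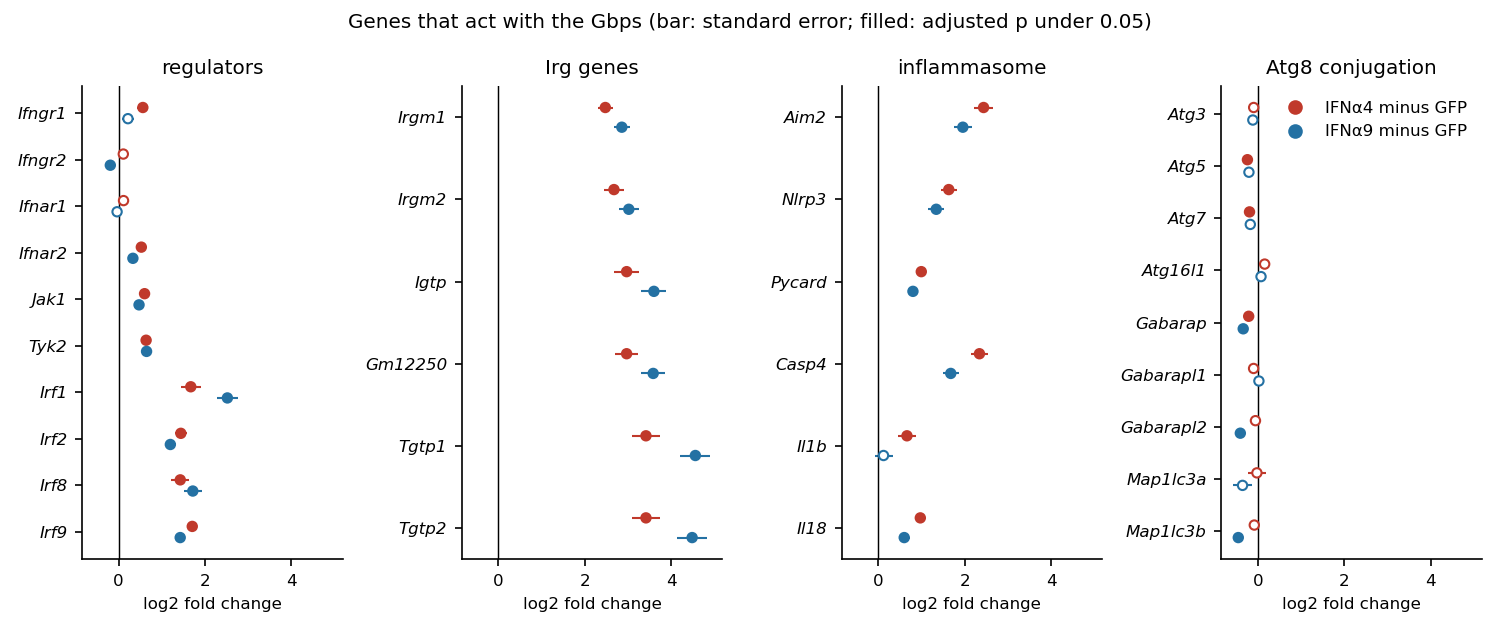
Log2 fold change against GFP tumors (x axis) with its standard error for genes that act with the GBPs, in IFNα4 (red) and IFNα9 tumors (blue), filled where the adjusted p was under 0.05. The IRG genes lie between 2.47 and 4.56 and the Atg8 conjugation genes between -0.46 and 0.15.

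The rise did not extend evenly to the genes beside the clusters. The nearest tested protein-coding genes outside the family, a pair on each side of each cluster, had log2 fold changes between -0.94 and 0.81 in IFNα4 and between -0.43 and 1.03 in IFNα9 tumors against GFP tumors. Beside the chromosome 3 cluster, Kyat3, 32010 bases away, fell by 0.94 in IFNα4 (SE 0.13) and by 0.43 in IFNα9 tumors (SE 0.13). On the other side of that cluster, Pdlim5 had log2 fold changes of 0.28 and -0.02. Beside the chromosome 5 cluster, Abcg3, 31432 bases away, rose by 0.73 (SE 0.17) and 1.03 (SE 0.17), while Lrrc8b fell by 0.47 (SE 0.10) and by 0.41 (SE 0.10) on the log2 scale. Each of the 8 neighbors changed less than every Gbp member in both comparisons.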

How the data were processed

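RNA of 30 whole tumors, 10 per type as the labels group them, was made into stranded mRNA libraries and sequenced as single-end 50-base reads. According to the submitters' processing notes, the authors used FastQC 0.11.3 and HISAT2 2.0.4 with the mm10 genome, whereas the study's methods name mm11, with summarizeOverlaps for the reads on each gene. The authors deposited raw counts and did not normalize them. Whether counting used the strand, and what was done with reads matching more than 1 place, is not given in the sources used here, so Gbp genes with shared sequence may have exchanged counts. Depth ran from 14598517 to 19788383 counts per tumor. Precision is limited by the spread between tumors. The edgeR p-values weigh a difference between types against that spread, and the labels do not say more of the tumors than biological replicate.

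Of 39676 identifiers, 39495 were found in GENCODE M21 (GRCm38), whose symbols, coordinates and exon lengths were used. The filter kept 15926 genes whose counts averaged 10 or more over the tumors. Counts were scaled by TMM and compared between types in a single quasi-likelihood fit of all 30 tumors in edgeR 4.0.16 (R 4.3.3), with Benjamini-Hochberg adjustment over all genes tested and calls at an adjusted p under 0.05. Standard errors came from each fold change divided by the square root of F, and 95% intervals from a normal approximation to them. Log2 CPM took a prior count of 2. The fit was tested on simulated data. Tried in turn instead were library totals or the size factors of DESeq2, a DESeq2 1.42.0 fit, filterByExpr or no filter, only the types compared, the replicate number as a block, each tumor left out, the longest transcript as length, and, chosen after the data were seen, the summed counts of Gbp6, Gbp10 and Gm43302. Relations with Ifng and its level were not analysed here. Promoters were searched with Python 3.11.15.

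The members and all gene lists were chosen with earlier results of these data known. All 8 members are named. Further genes come from lists of other Gbp genes, regulators, IRGs, inflammasome and Atg8 conjugation genes, the 2 nearest tested genes on each side of each cluster, the 5 genes most like the members, and markers of leukocytes, monocytes and macrophages, T, NK, B, endothelial, melanoma and muscle cells, fibroblasts and keratinocytes. Monocyte and macrophage markers (5 of 7 measured) had 4 genes higher in each IFN-I–secreting type and 2 lower in IFNα9 than in IFNα4 tumors. Fibroblast markers (3 of 4 measured) had 1 gene higher in each type. Keratinocyte markers (2 of 2 measured) had 1 higher in IFNα4 and none in IFNα9 tumors. A regulator outside the 14 genes counted in that list is not reported here.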

Additional observations from a re-analysis of the deposited data

Results flagged for a closer look

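GFP tumor 7 lay far below the other 9 GFP tumors for 5 of the 8 members, by a gap to the next tumor that exceeded the 95% critical share of the whole range. Its log2 CPM was 1.74 for Gbp5, 3.34 for Gbp7, 2.05 for Gbp4, -0.61 for Gbp8 and 2.57 for Gbp9. In all, 24 groups of 10 values were searched, for 8 members and 3 types, and chance puts about 1 in 20 groups, or 1.2 of 24, past this limit. The members vary together, so the 5 values are not independent of each other. This tumor also had the lowest summed level of leukocyte genes among GFP tumors (108 CPM) and the smallest TMM factor of all tumors (0.768), and the part of these in its Gbp levels was not tested. No tumor of the IFNα4 or IFNα9 type lay past the limit for any member.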

How the results depend on the processing

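Against GFP tumors, all 8 members were called higher under every alternative and without each tumor in turn, in both comparisons. Between IFNα9 and IFNα4 tumors the count of members called was 1 in the fit as reported. It was 2 with filterByExpr, 3 with DESeq2 and 4 with only the types compared, and between 1 and 4 with 1 tumor left out. DESeq2's size factors, library totals, no filter and the summed counts left it at 1. Gbp4 was called in all of these fits. Over all genes tested, 1679 of 15926 were called higher in the fit as reported and 1914 of 16203 with filterByExpr. With DESeq2 1704 of 15926 were called higher, and 2363 with only the types compared. Gbp3, with a log2 fold change near 0 between IFNα9 and IFNα4 tumors, changed sign with DESeq2's size factors (-0.00756), without a filter (-0.000496), with only the types compared (-0.000762), with the replicate block (-0.00384) and with DESeq2 (-0.00755), and ran from -0.0601 to 0.0745 with 1 tumor left out. Gbp5 ran from -0.0398 to 0.208, below 0 without IFNα9 tumor 2 or 8. The cause was not tested.

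With the replicate number as a block, 1 member was called between IFNα9 and IFNα4 tumors, Gbp4 (log2 fold change 0.99, adjusted p = 0.0450 by edgeR). The numbers do not pair the tumors, as the deviations of same-numbered tumors correlated by more than 0.1 in 4 of 30 pairs (from -0.267 to 0.302). With the longest transcript as length, 4 of 8 members kept their rank in IFNα9 tumors, 6 in GFP and 8 in IFNα4 tumors. Relations with Ptprc past the threshold numbered 15 of 24, and 19 with library totals. At this depth the least abundant member, Gbp8, had 6 counts in GFP tumor 7.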
